A study of Mus musculus with 4 samples.

Results

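The genes described here are 10 parts of the Toll-like receptor system, found by symbol among the 31053 genes of the files. This set was chosen with earlier results of these data known. Its members are the receptors Tlr1, Tlr2, Tlr4, Tlr7, Tlr8 and Tlr9, the co-receptors Cd14 and Ly96, the adaptor Myd88 and the transport protein gene Unc93b1. They were measured by single-cell RNA sequencing in efferocytic and non-efferocytic bone marrow (BM) macrophages. All 10 symbols matched 1 gene each, and all 10 passed the filter on low counts that left 13869 genes for testing. Toll-like receptors are innate immune receptors that bind molecules of microbes and, in part, of damaged cells. TLR1, TLR2 and TLR4 act at the cell surface, where TLR2 pairs with TLR1 to bind lipopeptides and where CD14 and MD-2 (the product of Ly96) pass lipopolysaccharide to TLR4. TLR7, TLR8 and TLR9 bind nucleic acids in endosomes and need UNC93B1 to get there, and all these receptors can signal through MYD88 to NF-κB and interferon regulatory factors. Macrophages carry most of these receptors, and engulfed dead cells deliver nucleic acids to the compartment where the endosomal receptors lie.

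BM macrophages of male C57BL/6J mice, 4 weeks old (4 to 6 in the general methods), had been grown with M-CSF (macrophage colony stimulating factor). Efferocytic macrophages had been co-cultured for 16 to 18 h with apoptotic RM1 cells, a Ras+Myc-induced prostate cancer line of C57BL/6J mice killed by UV light, and were sorted as F4/80+CFSE+ cells, CFSE being the dye carried in by the RM1 cells. Non-efferocytic macrophages were sorted as F4/80+ cells. The paper's discussion calls them BM macrophages alone, and no co-culture time is given for them. Its results call them non-engulfing, and its methods do not state whether they had been in the co-culture. Each of 2 experiments gave 1 library of each kind, so n = 2 libraries per group. The main test takes experiment as a block, so its p-values rest on how far the group difference varied between the 2 experiments. They also borrow information from all genes tested, and do not measure the SDs within groups given below. They say nothing of the spread between animals, since nothing in the labels ties the libraries to separate animals. Both groups were cultured cells grown with M-CSF. As no library is given as co-cultured macrophages without uptake, co-culture and uptake cannot be told apart.

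The 4 libraries held 8280 and 6695 cells in Experiment 1 (non-efferocytic, then efferocytic) and 13411 and 8408 in Experiment 2, with 101216659 to 155224183 unique molecular identifiers (UMIs, 1 per captured RNA molecule) in cells. Mean depth was 12224 and 10316 UMIs per cell in the non-efferocytic libraries and 18670 and 18462 in the efferocytic ones. Levels are in CPM, a gene's UMIs for each 1000000 UMIs that the cells of its library held. Since each UMI stands for 1 molecule tagged at its 3′ end, CPM needs no division by gene length. A sum over cells cannot tell fewer expressing cells from less RNA per cell. Cells with macrophage markers made up 95.6%, 95.8%, 89.5% and 95.4% of the libraries, in the order non-efferocytic and efferocytic of Experiment 1, then of Experiment 2, which is the order of every set of 4 values here. The libraries shared 14 to 23 cell barcodes per pair, apart from 118 between the libraries of Experiment 2, where 16.6 would be shared by independent draws. Without all shared barcodes, 6 of the 10 genes were lower and 1 higher in efferocytic macrophages by edgeR, as with them, beside 18.9% and 19.5% of all genes.

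The promoters of 5 members, from RefSeq's GRCm38.p6 table, are shown because most of these genes moved in the same direction, and Myd88 for the ranges of cells described further on. They are the bases before RefSeq's transcription start, cut where an exon of GENCODE vM21 begins, 5′ to 3′ on the gene's strand. Capitals mark matches, on either strand, to 4 motifs: the NF-κB motif (GGG, any 5 bases, CC), the PU.1 motif GAGGAA, the AP-1 motif TGANTCA and the interferon-stimulated response element (GAAA, any 2 bases, GAAA). The windows are chr3:83841768-83841858 (minus strand) for Tlr2, chr5:64933564-64933808 (minus) for Tlr1, chrX:167264330-167264579 (minus) for Tlr8, chr9:106222348-106222597 (plus) for Tlr9 and chr9:119340042-119340268 (minus) for Myd88.
Tlr2: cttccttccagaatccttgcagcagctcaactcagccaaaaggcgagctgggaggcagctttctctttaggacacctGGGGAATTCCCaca
Tlr1: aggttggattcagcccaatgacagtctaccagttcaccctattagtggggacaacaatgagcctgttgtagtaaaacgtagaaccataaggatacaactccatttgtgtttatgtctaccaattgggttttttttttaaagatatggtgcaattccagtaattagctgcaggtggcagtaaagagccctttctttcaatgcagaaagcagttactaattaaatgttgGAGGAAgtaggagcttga
Tlr8: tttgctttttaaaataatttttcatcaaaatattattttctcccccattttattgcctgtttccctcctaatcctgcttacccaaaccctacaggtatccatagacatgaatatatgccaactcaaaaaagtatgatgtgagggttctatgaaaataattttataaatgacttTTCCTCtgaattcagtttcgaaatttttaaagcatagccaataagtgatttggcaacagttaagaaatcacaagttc
Tlr9: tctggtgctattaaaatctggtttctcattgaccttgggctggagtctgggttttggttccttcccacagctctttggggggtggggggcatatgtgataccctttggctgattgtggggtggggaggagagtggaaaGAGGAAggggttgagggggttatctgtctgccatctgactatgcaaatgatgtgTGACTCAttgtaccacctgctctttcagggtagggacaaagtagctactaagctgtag
Myd88: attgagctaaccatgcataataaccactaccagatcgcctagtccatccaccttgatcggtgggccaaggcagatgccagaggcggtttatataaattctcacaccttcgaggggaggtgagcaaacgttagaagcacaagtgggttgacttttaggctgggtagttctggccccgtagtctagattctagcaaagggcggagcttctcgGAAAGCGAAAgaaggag
Tlr2 held a pair of overlapping NF-κB matches 173 and 172 bases before its start, and no match of 1 motif overlapped a match of another. Tlr1, Tlr8 and Tlr9 each held a PU.1 match, 23, 77 and 112 bases before the start. Tlr9 also held an AP-1 match 58 bases before its start. Myd88 held an interferon-stimulated response element 40 bases before its RefSeq start. The Myd88 window lies inside the gene's full bounds (chr9:119335934-119341411, minus strand), downstream of their 5′ end. Of 32851 promoter windows of 250 bases, 45.8% held the NF-κB motif, 23.3% the PU.1 motif, 6.75% the AP-1 motif and 2.98% the interferon-stimulated response element. A second Tlr1 window begins in an exon and is not shown. The set of promoter windows used here held none for Tlr4, Tlr7, Cd14, Ly96 and Unc93b1, so no sequence is shown for them.

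The comparison asked which parts of the Toll-like receptor system differed between macrophages that had engulfed apoptotic cancer cells and those that had not. Of the 10 genes, 6 were lower in efferocytic macrophages (Tlr1, Tlr2, Tlr8, Tlr9, Cd14 and Unc93b1), 1 was higher (Tlr4) and 3 did not pass the test (Tlr7, Ly96 and Myd88), by edgeR's quasi-likelihood test at an adjusted p under 0.05. Over all genes tested, 38.9% were called, 19.0% as lower and 19.9% as higher. These were 2636 lower and 2761 higher genes, against 3700 and 1847 with library totals in place of TMM scaling and 586 and 6921 with UMIs per cell. For the 10 genes the log2 fold change had a median of -0.60, beside -0.02 for all genes tested. For 8 of the 10 genes the CPM of the groups did not overlap, as for 66.9% of all genes. With the block dropped and 1 library left out, edgeR called 7 of the 10, beside 20.4% of all genes, when this was the efferocytic library of Experiment 1. When it was that of Experiment 2, edgeR called 0 of the 10, beside 8.48% of all genes. When it was the non-efferocytic library of Experiment 1 or 2, edgeR called 0 of the 10, beside 0.0141% and 0% of all genes (2 and 0 genes, with 2999 and 3494 at an unadjusted p under 0.05). Over the fits with 1 library left out, the log2 fold change ran from -1.31 to -0.80 for Tlr2 and from -1.19 to -0.55 for Cd14. It ran from -0.93 to -0.60 for Unc93b1, -0.67 to -0.55 for Tlr1 and -0.80 to -0.36 for Tlr8. For Tlr9 the range was -2.37 to -1.27, and for Tlr4 it was 0.35 to 0.55.

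**Figure D1:**
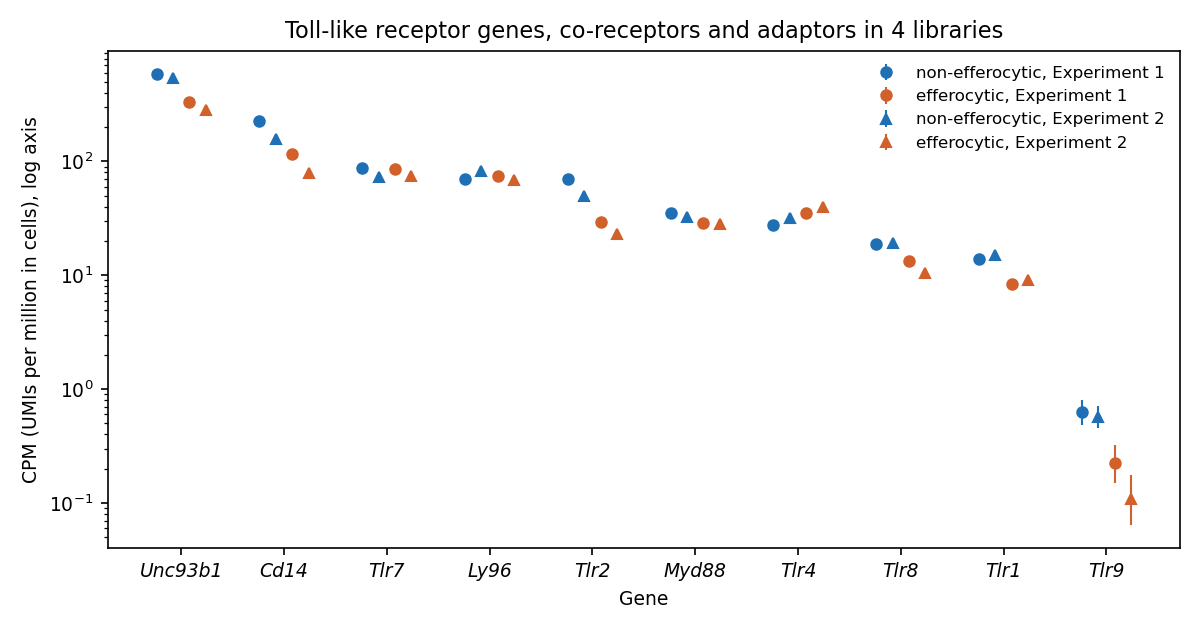
CPM of the 10 genes on a log axis, for the 2 non-efferocytic (blue) and 2 efferocytic (orange) libraries, with circles for Experiment 1 and triangles for Experiment 2 and bars for exact 95% Poisson intervals, which cover counting error only. Unc93b1 was the highest of the 10 in all 4 libraries, at 280 to 589 CPM, and Tlr9 the lowest, at 0.110 to 0.632 CPM.

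In the non-efferocytic libraries the levels fell in the order Unc93b1 (563 ± 35.8 CPM, SD, n = 2), Cd14 (192 ± 50.6), Tlr7 (80.0 ± 10.2), Ly96 (75.8 ± 8.25), Tlr2 (59.6 ± 14.4), Myd88 (33.6 ± 1.82), Tlr4 (29.8 ± 2.88), Tlr8 (19.0 ± 0.331), Tlr1 (14.5 ± 0.896) and Tlr9 (0.602 ± 0.0433). Among neighbours in this order, Tlr7 and Ly96 differed by less than their SDs. In the efferocytic libraries the order was Unc93b1 (308 ± 38.6 CPM), Cd14 (98.4 ± 26.5), Tlr7 (80.1 ± 9.05), Ly96 (72.2 ± 4.01), Tlr4 (37.6 ± 3.04), Myd88 (28.2 ± 0.389), Tlr2 (26.2 ± 4.82), Tlr8 (11.8 ± 2.09), Tlr1 (8.76 ± 0.470) and Tlr9 (0.167 ± 0.0810). There Cd14 and Tlr7, Tlr7 and Ly96, and Myd88 and Tlr2 lay within the larger SD of each other. Tlr2 had 2.51 and 1.55 UMIs for each UMI of Tlr4 in the non-efferocytic libraries and 0.836 and 0.574 in the efferocytic ones, so that their order turned in both experiments.

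Tlr2, at chromosome 3:83836272-83841767 (GRCm38, minus strand), encodes the receptor for bacterial lipopeptides and carries the NF-κB matches shown above. It was at 69.8 CPM in the non-efferocytic and 29.6 in the efferocytic library of Experiment 1, and at 49.4 and 22.8 in Experiment 2. Both efferocytic libraries lay below both non-efferocytic ones. The fitted log2 fold change was -1.07 ± 0.0747 (SE, edgeR adjusted p = 8.74e-05), a 2.10-fold decrease. Tlr1, its partner (chromosome 5:64924679-64933563, minus strand), stood at 13.8, 8.43, 15.1 and 9.10 CPM, again without overlap, and fell by 0.62 on the log2 scale (± 0.0905, edgeR adjusted p = 0.00172). Reads of Tlr1 could be shared with its close paralog Tlr6, which did not pass the test (log2 fold change -0.05, edgeR adjusted p = 0.723). The UMI ratio of Tlr2 to Tlr1 was 5.05 and 3.27 in the non-efferocytic libraries and 3.52 and 2.51 in the efferocytic ones. The groups overlapped in this ratio, while it was lower in the efferocytic library within each experiment.

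Tlr4, the receptor for lipopolysaccharide (chromosome 4:66827584-66930284, plus strand), was the only member that rose. Its CPM were 27.8 and 35.4 in Experiment 1 and 31.9 and 39.7 in Experiment 2, so both efferocytic libraries lay above both non-efferocytic ones. The log2 fold change was 0.44 ± 0.0767 (edgeR adjusted p = 0.00343). The RNA of Cd14 and Ly96, whose proteins hand lipopolysaccharide to TLR4, did not rise with it. Cd14, on chromosome 18, was at 228, 117, 156 and 79.7 CPM and fell by 0.86 on the log2 scale (± 0.0866, edgeR adjusted p = 0.000341), a 1.81-fold decrease. Without the experiment as a block, Cd14 did not pass the test (edgeR adjusted p = 0.0873), and its log2 fold change was then -0.55 without the non-efferocytic library of Experiment 1 and -0.56 without the efferocytic library of Experiment 2. The ratio of Cd14 to Tlr4 UMIs was 8.19 and 4.90 in the non-efferocytic and 3.30 and 2.01 in the efferocytic libraries.

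Ly96, which encodes the lipopolysaccharide-binding subunit MD-2 (chromosome 1:16688051-16709611, plus strand), was at 70.0 and 75.0 CPM in Experiment 1 and 81.6 and 69.3 in Experiment 2. The groups overlapped, and the log2 fold change was 0.04 ± 0.107 (edgeR adjusted p = 0.796). Within the experiments the log2 CPM ratios had opposite signs, 0.10 (95% counting interval 0.06 to 0.14) and -0.24 (-0.27 to -0.20). Ly96 had 2.52 and 2.56 UMIs per UMI of Tlr4 in the non-efferocytic libraries and 2.12 and 1.74 in the efferocytic ones.

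**Figure D2:**
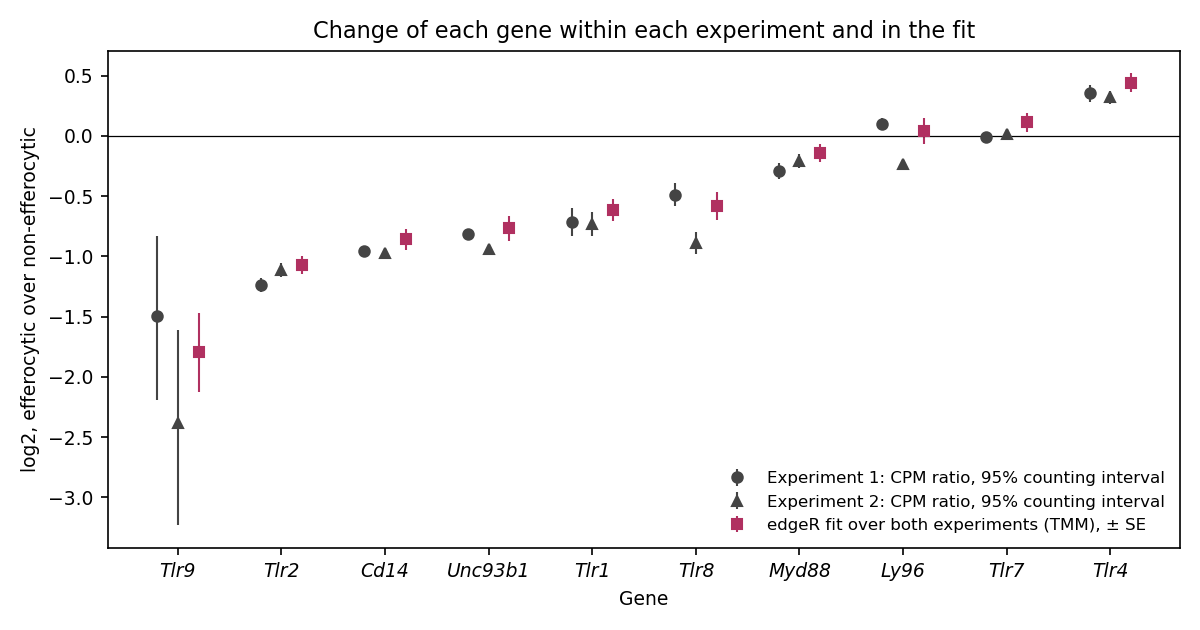
Log2 ratio of CPM, efferocytic over non-efferocytic, for each gene in Experiment 1 (circles) and Experiment 2 (triangles) with exact 95% counting intervals, beside the edgeR fit over both experiments (squares, ± SE), which scales the libraries by TMM. Tlr9, Tlr2, Cd14, Unc93b1, Tlr1 and Tlr8 lie below 0 in both experiments, Tlr4 lies above 0 in both, and Ly96 changes sign.

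Among the endosomal receptors, Tlr8 and Tlr9 were lower and Tlr7 did not pass the test. Tlr7, a receptor for single-stranded RNA (chromosome X:167304929-167330558, minus strand), was at 87.2 and 86.5 CPM in Experiment 1 and 72.8 and 73.7 in Experiment 2. The values differed more between experiments than between groups, and the log2 fold change was 0.11 ± 0.0783 (edgeR adjusted p = 0.289). Tlr8, its neighbour on the X chromosome (X:167242696-167264329, minus strand), was at 18.7, 13.3, 19.2 and 10.4 CPM. The groups did not overlap, and it fell by 0.58 on the log2 scale (± 0.118, edgeR adjusted p = 0.00654). The decrease was of 0.49 (counting interval -0.59 to -0.39 for the log2 ratio) in Experiment 1 and 0.89 (-0.98 to -0.80) in Experiment 2. Tlr8 did not pass without the block (edgeR adjusted p = 0.0700) or after removal of 10% of the UMIs as free RNA (0.0583). Without the block and the efferocytic library of Experiment 2 its log2 fold change was -0.36 and did not pass.

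Tlr9, the receptor for unmethylated DNA (chromosome 9:106222598-106226883, plus strand), was close to absent. It had 64 and 79 UMIs in the non-efferocytic libraries and 28 and 17 in the efferocytic ones, or 0.632, 0.224, 0.571 and 0.110 CPM. The groups did not overlap, and Tlr9 fell by 1.80 on the log2 scale (± 0.327, edgeR adjusted p = 0.00420). The counting intervals of the log2 ratio were wide, -2.19 to -0.84 in Experiment 1 and -3.23 to -1.61 in Experiment 2. Barcodes under 100 UMIs, which hold free RNA rather than cells, had 2, 3, 3 and 0 UMIs of Tlr9, or 0.300, 0.549 and 0.418 CPM and, for the count of 0, up to 0.526 CPM. The counting intervals of the first 3 (0.0363 to 1.08, 0.113 to 1.60 and 0.0862 to 1.22 CPM) and the limit of the last held the level in cells, so a difference between Tlr9 in cells and in free RNA was not detectable at this depth.

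Unc93b1 encodes the chaperone that carries the nucleic acid receptors from the endoplasmic reticulum to endosomes (chromosome 19:3935186-3949340, plus strand). It was at 589 and 335 CPM in Experiment 1 and 538 and 280 in Experiment 2. Its groups lay far apart relative to their SDs of 35.8 and 38.6 CPM, and it fell by 0.77 on the log2 scale (± 0.108, edgeR adjusted p = 0.00138), a 1.70-fold decrease. There were 6.75 and 7.39 UMIs of Unc93b1 per UMI of Tlr7 in the non-efferocytic libraries and 3.87 and 3.80 in the efferocytic ones.

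Myd88, the adaptor shared by the 6 receptors (chromosome 9:119335934-119341411, minus strand), was at 34.9, 28.5, 32.3 and 27.9 CPM. Both efferocytic libraries lay below both non-efferocytic ones, but the log2 fold change of -0.14 ± 0.0746 did not pass the test (edgeR adjusted p = 0.159). When only genes averaging 10 CPM or more were fitted it was -0.24 and passed (edgeR adjusted p = 0.0322). Exons of Myd88 overlap those of Acaa1a on the opposite strand, and the strand used in counting is not given in the sources used here, so reads of the pair may not be told apart.

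The direction of some calls depends on the scale. Efferocytic cells held more UMIs each, and with UMIs per cell in place of TMM the median over all genes went from -0.02 to 0.60. On that scale Tlr1 and Tlr8 turned to 0.0033 and 0.036, Tlr7 (0.73) and Ly96 (0.66) joined Tlr4 (1.06) among the higher genes by edgeR, Myd88 turned to 0.47 without passing, and Tlr9 (-1.19) passed as lower. Tlr2 (-0.45), Cd14 (-0.24) and Unc93b1 (-0.15) stayed below 0 without passing. Relative to that median the values lay within their SEs of those under TMM, with Tlr2 at -1.05, Cd14 at -0.84, Unc93b1 at -0.75, Tlr1 at -0.60, Tlr8 at -0.57, Tlr7 at 0.13 and Tlr4 at 0.46. In UMIs per cell, Tlr1 was at 0.169, 0.157, 0.156 and 0.168, while Tlr4 was at 0.340, 0.662, 0.329 and 0.734.

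The make-up of the receptor pool does not depend on library scaling. The 12 mouse Toll-like receptor genes together had 30850, 34508, 37425 and 41032 UMIs, or 305, 276, 271 and 264 CPM. Surface receptors (Tlr1, Tlr2, Tlr4, Tlr5 and Tlr6) took 40.2% of these UMIs in the non-efferocytic and 30.1% in the efferocytic library of Experiment 1, and 39.9% and 31.0% in Experiment 2. The shares of the groups lay well apart, with exact 95% binomial intervals of 39.6 to 40.7, 29.6 to 30.6, 39.4 to 40.4 and 30.6 to 31.5%, for counting error only. The receptors on each side did not move together. Among surface receptors Tlr2 went from 22.9% to 10.7% and from 18.3% to 8.63%, while Tlr4 went up, from 9.12% to 12.8% and from 11.8% to 15.0%. Among endosomal receptors Tlr8 went down, from 6.14% to 4.83% and from 7.09% to 3.92%. Tlr7 took 28.6%, 31.3%, 26.9% and 27.9%, and Tlr13, the mouse receptor for bacterial ribosomal RNA, which is not among the 10 genes, took 22.6%, 31.4%, 23.4% and 34.7%. With 2 libraries a group an exact permutation test could not fall below p = 0.333, so none was run.

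**Figure D3:**
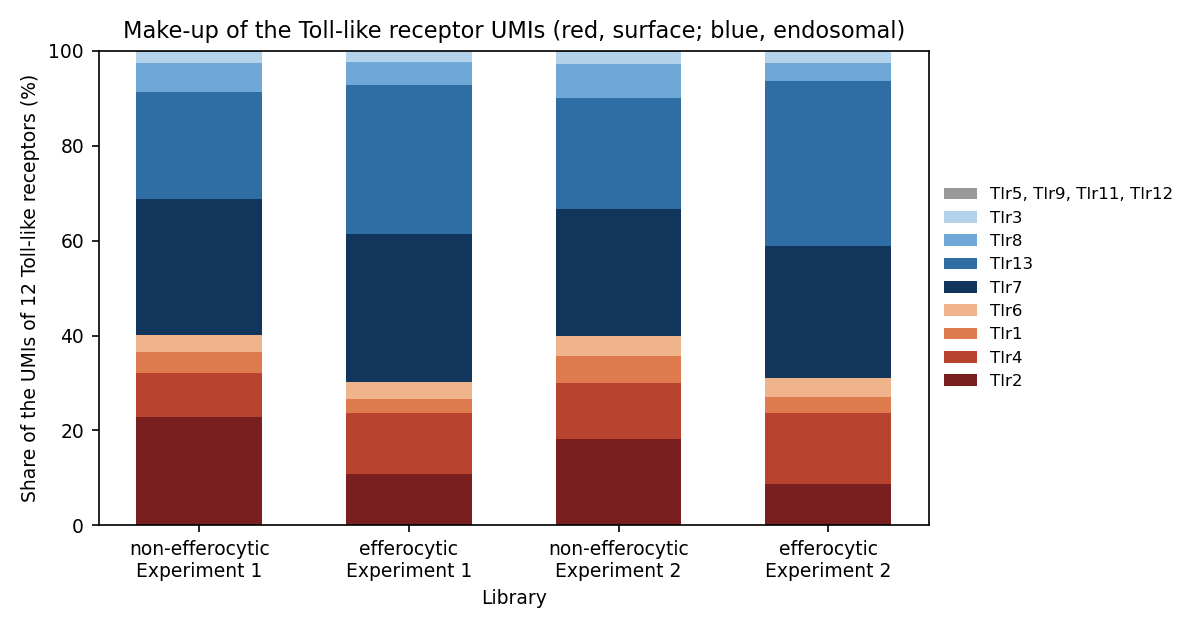
Share of the UMIs of 12 Toll-like receptor genes taken by each gene in the 4 libraries, in percent, with surface receptors in red and endosomal receptors in blue; Tlr5, Tlr9, Tlr11 and Tlr12 are too few to be seen. Surface receptors hold 40.2% and 39.9% in the non-efferocytic libraries and 30.1% and 31.0% in the efferocytic ones.

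Single cells gave another view, in which depth mattered. As counted, Tlr4 was found in 26.9% and 25.7% of non-efferocytic and 44.2% and 48.7% of efferocytic cells. At an equal 5000 UMIs per cell, among the 7181, 6151, 10007 and 7903 cells that had as many, the shares to be found were 13.4%, 17.1%, 15.1% and 18.9%. Tlr4 was thus higher in the efferocytic library of both experiments on both scales. As counted, Tlr7, Ly96 and Myd88 were also found in more efferocytic cells in both experiments, whereas at equal depth they were not.

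Unc93b1 was detected in nearly all cells as counted, 95.1%, 93.1%, 87.7% and 93.0%, and at equal depth in 92.8% and 90.8% of non-efferocytic but 79.5% and 73.8% of efferocytic cells. Cd14 at equal depth was found in 60.8% and 48.8% of non-efferocytic and 38.9% and 30.8% of efferocytic cells, and Tlr2 in 28.2% and 21.5% against 13.5% and 10.8%. All 3 were lower in the efferocytic library of each experiment at equal depth. As counted, Cd14 was found in 77.4%, 69.0%, 60.7% and 62.6% of cells. Cd14 and Unc93b1 were thus higher as counted in the efferocytic library of Experiment 2, while Tlr2 was lower in both experiments. Tlr7 was found in 35.4%, 34.8%, 30.7% and 30.4% of cells at equal depth, a smaller gap between groups than between experiments, although as counted it rose from 56.2% to 67.5% and from 44.1% to 62.8%.

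Free RNA sets a floor under these shares. Cells were taken as neutrophil-marker cells with at least 1% of UMIs from neutrophil markers and under 3 macrophage markers. The second condition leaves out cells with more macrophage RNA, so the shares in them may understate the background. Cells with neutrophil markers, 34, 18, 60 and 19 in number at median depths of 13340, 12058, 10630 and 17645 UMIs, had a UMI of Ly96 in 2.94%, 16.7%, 3.33% and 5.26% of cases and of Tlr7 in 5.26% to 20%. In macrophage-marker cells, at median depths of 11358, 17689, 10265 and 17839 UMIs, Ly96 was found in 52.8%, 67.4%, 53.3% and 67.1% and Tlr7 in 58.1%, 69.9%, 48.2% and 65.5%. Neutrophils can express Cd14, Tlr2, Tlr4, Tlr8 and Myd88 themselves, so they bound no background for those. In barcodes under 100 UMIs Cd14 was at 137, 83.7, 146 and 117 CPM and Unc93b1 at 346, 229, 343 and 242, lower in the efferocytic library of each experiment, as in cells. Tlr2 there was at 41.9, 24.3, 56.1 and 42.2 CPM, above its level in cells in both libraries of Experiment 2. Free RNA was also above the level in cells for Myd88 in both libraries of Experiment 2 (38.3 and 31.7 CPM), for Cd14 in the efferocytic library of Experiment 2, and slightly for Tlr1 in both libraries of Experiment 1 and the efferocytic one of Experiment 2 (14.4, 8.78 and 10.5 CPM). Tlr4 in free RNA was at 14.7, 26.0, 28.3 and 32.8 CPM, higher in the efferocytic library of each experiment, as in cells. With 10% of the UMIs removed as free RNA, Tlr2, Tlr4, Cd14 and Unc93b1 still passed by edgeR. Tlr7 in free RNA was at 59.6, 62.0, 54.2 and 57.7 CPM.

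**Figure D4:**
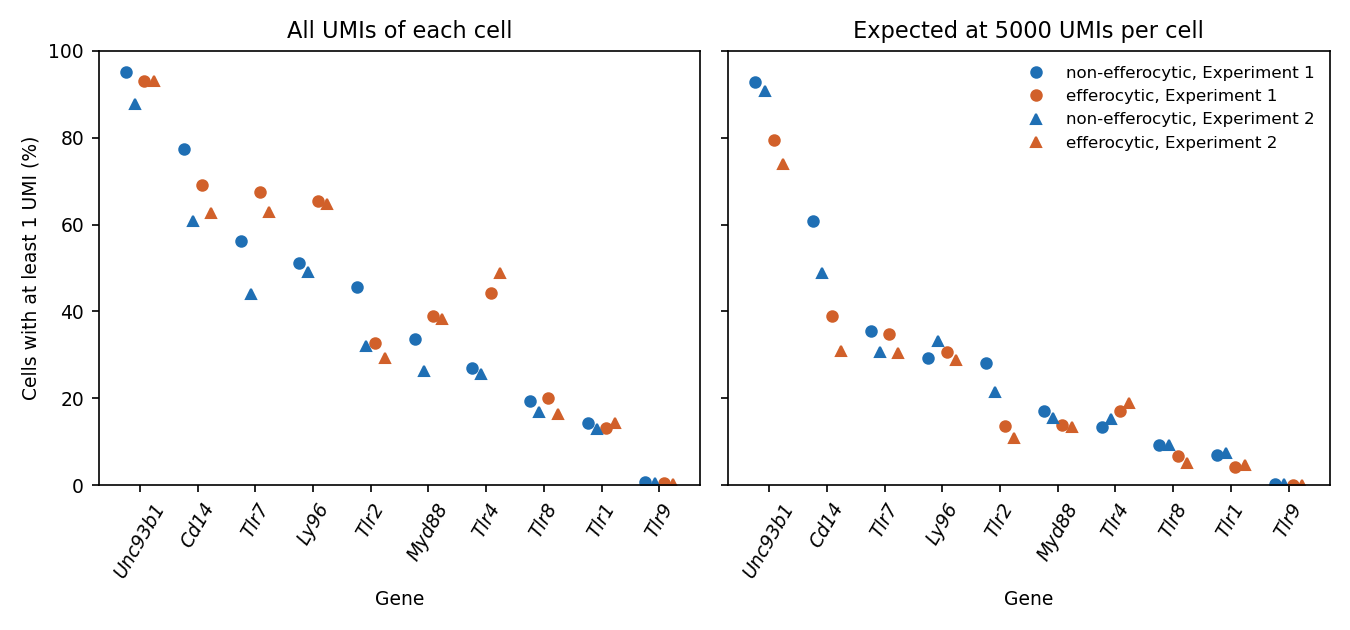
Percent of cells with at least 1 UMI of each gene in the 4 libraries, as counted (left) and at an equal 5000 UMIs per cell (right), with non-efferocytic libraries in blue, efferocytic in orange, circles for Experiment 1 and triangles for Experiment 2. Tlr7, Ly96 and Myd88 lie higher in efferocytic libraries on the left, and on the right only Tlr4 does so in both experiments.

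Genes whose products form receptor complexes were looked at for joint detection in single cells, which shows RNA and not complexes. These shares depend on the level of each gene and on depth, and an excess over independent detection was not tested. Tlr4, Ly96 and Cd14 were found together in 13.5% and 11.99% of non-efferocytic and 25.8% and 23.8% of efferocytic cells as counted, but at equal depth in 2.29% and 2.50% against 2.08% and 1.66%. The direction thus turned with depth. Tlr1 and Tlr2 together were expected in 2.24%, 0.687%, 1.87% and 0.551% of cells at equal depth, and Tlr7 with Unc93b1 in 33.5%, 28.5%, 28.6% and 23.4%. Both pairs were lower in the efferocytic library of each experiment at that depth. As counted, Tlr7 with Unc93b1 was higher there, at 55.4%, 66.0%, 42.9% and 61.5%. Tlr1 with Tlr2 was lower there as counted too, at 7.84%, 5.44%, 5.47% and 5.02%. At equal depth, Tlr4 with Ly96, without regard to Cd14, was higher in the efferocytic library of each experiment, at 3.93%, 5.34%, 5.02% and 5.41%.

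Some markers of other cells moved with the groups and others with the experiments. The 6 neutrophil markers, all of them detected in every library, summed to 3012, 943, 3299 and 688 CPM, and the 4 fibroblast markers to 144, 45.7, 119 and 50.9, so both were lower in both efferocytic libraries. Dendritic cell (at most 0.744 CPM), B cell (at most 4.39) and mast cell or basophil markers (at most 0.210) were near 0. Epithelial markers looked for in RM1 cells summed to 0.148, 0.0880, 9.36 and 8.01 CPM. The paper's supplement lists RM1 as fibroblast-like, so these markers may not show RM1 RNA. Whether RNA of engulfed RM1 cells, also of mouse, added to the counts was not tested. Erythroid markers summed to 0.0198, 0.0320, 48.2 and 51.5 CPM and T or NK cell markers to 0.237, 0.0560, 2.05 and 1.51. These and the epithelial markers were higher in both libraries of Experiment 2. Macrophage markers did not move together. Lyz2, which made up most of their sum, was at 32090, 25872, 27532 and 18674 CPM and Csf1r at 849, 364, 732 and 299.9, lower in the efferocytic library of each experiment, as were Adgre1, Fcgr1 and Mertk, while Cd68 was higher, at 964, 1333, 987 and 1477. In macrophage-marker cells alone, 6 of the 10 genes were lower and 1 higher by edgeR, beside 18.0% and 18.6% of all genes, and the log2 CPM ratios of Tlr2 were -1.25 and -1.13, those of Cd14 -0.97 and -0.99 and those of Tlr4 0.33 and 0.31.

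Ranges of macrophage-marker cells, cut by a marker score and not types of cells, differed in the levels of several members. The cut for interferon response genes was 0.2% of UMIs, with 197, 57, 151 and 13 cells at or over it and 85, 39, 55 and 8 within 20% of it. The Myd88 window shown above holds an interferon-stimulated response element, and a link of this motif to Myd88 levels was not tested. Myd88 was at 69.4 CPM in these cells and 34.1 in those under the cut in the non-efferocytic library of Experiment 1. In that of Experiment 2 it was at 70.0 and 31.8 CPM. It was at 41.5 and 28.2 CPM, and at 50.9 and 27.9, in the efferocytic libraries. Myd88 was higher over the cut in all 4 libraries, and the counting interval of the log2 ratio excluded 0 in 3 of them, reaching from -0.04 to 1.64 in the efferocytic library of Experiment 2. Unc93b1 (0.30, 0.37, 0.27 and -0.11) and Tlr7 (0.37, 0.36, 0.02 and 0.75) also had log2 ratios with intervals above 0 in 3 of the 4 libraries. The score genes summed to 233, 158, 123 and 51.8 CPM over all cells. The log2 ratio of Myd88 between groups in the cells under the cut was -0.27 in Experiment 1 and -0.19 in Experiment 2.

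Cells at or over the cut for cycling genes (0.05% of UMIs, 469, 175, 811 and 444 cells, with 228, 42, 357 and 108 within 20% of it) had less Tlr7. It was at 60.2, 55.6, 56.0 and 54.3 CPM in them and at 90.4, 88.4, 75.8 and 76.0 in the cells under the cut. Tlr7 was lower in cycling-range cells in all 4 libraries, with log2 ratios of -0.59, -0.67, -0.44 and -0.49, each with a counting interval below 0. Unc93b1 (-0.36, -0.33, -0.30 and -0.20) and Ly96 (-0.19, -0.25, -0.18 and -0.20) were also lower in all 4, with intervals below 0. Cd14 was higher in the cycling range in 3 libraries, with log2 ratios of 0.76, 0.15 and 0.37, and at 0.0043 in the non-efferocytic library of Experiment 1, where the interval held 0. Tlr1 was higher in the 182 and 493 non-efferocytic cells at or over the cut for MHC class II genes (0.5% of UMIs, with 105 and 178 cells within 20% of it), at 19.0 against 13.9 CPM and 19.6 against 15.1. In the same cells Unc93b1 was higher too (log2 ratios 0.16 and 0.22), and Tlr2 (-0.38 and -0.28) and Tlr4 (-0.53 and -0.47) were lower, with intervals that excluded 0. Only 2 and 34 efferocytic cells lay over that cut. Under it, the log2 ratio of Tlr1 between groups was -0.71 and -0.72. These genes, members and ranges were singled out after their values were seen.

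The genes around these members were taken as 8 lists of 86 genes, of which 78 were tested. In efferocytic macrophages 11 were higher, 31 were lower and 36 did not pass, beside 19.9% higher and 19.0% lower of all genes, the background for each list. Their median log2 fold change was -0.17. With the block dropped and 1 library left out, edgeR called 0 of them when this was a non-efferocytic library (30 and 33 with an unadjusted p under 0.05), beside 0.0141% and 0% of all genes. It called 24 of 81 tested without the efferocytic library of Experiment 1 and 14 of 80 without that of Experiment 2, beside 20.4% and 8.48% of all genes.

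Of the other Toll-like receptors, Tlr13 rose, from 68.8 to 86.7 CPM in Experiment 1 and from 63.3 to 91.6 in Experiment 2 (log2 fold change 0.54 ± 0.0807, edgeR adjusted p = 0.00184). Tlr5, the flagellin receptor, had only 30, 8, 31 and 15 UMIs, or 0.296, 0.0640, 0.224 and 0.0966 CPM. It was lower by edgeR (log2 fold change -1.54, adjusted p = 0.0216), a call limited by depth as for Tlr9. Tlr3 and Tlr6 did not pass. Tlr11 and Tlr12, with at most 10 UMIs in a library, were not tested. The list had 1 gene higher and 1 lower of 4 tested, with a median of -0.02.

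All 4 other co-receptors passed, 2 in each direction, with a median of 0.05. Cd36, a scavenger receptor for lipids and apoptotic cells that also serves TLR2, rose from 476 to 1440 CPM and from 556 to 1669 (log2 fold change 1.70 ± 0.122, edgeR adjusted p = 9.40e-05). Cd180, a TLR4-like receptor without a signaling domain, went from 51.8 to 86.9 and from 47.1 to 89.7 CPM and rose by 0.95 on the log2 scale (edgeR adjusted p = 0.000161). Ly86, which encodes the partner of CD180 as Ly96 encodes that of TLR4, went from 338 to 197 and from 292 to 132 CPM and fell by 0.85 (edgeR adjusted p = 0.00149). CD180 and its partner gene thus moved in opposite directions.

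Of 12 genes of endosomal trafficking and processing, 4 were higher, 3 lower and 5 did not pass, with a median of 0.10. The chaperone gene Hsp90b1 (gp96), which folds Toll-like receptors, rose from 327 to 599 and from 326 to 568 CPM, with a log2 fold change of 0.94 (edgeR adjusted p = 0.000529). Ctsl, a lysosomal protease able to cut the endosomal receptors, rose by 1.09 (edgeR adjusted p = 0.000813) and the endosomal nuclease gene Pld3 by 0.75 (edgeR adjusted p = 0.00161). Rnaset2a, a ribonuclease that makes ligands of TLR8, fell by 0.76 (edgeR adjusted p = 0.000916), and its reads may be shared with the near-identical Rnaset2b, which fell by 0.54 (edgeR adjusted p = 0.00354).

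Most signaling genes did not pass. Of 5 other adaptors Ticam2 (TRAM), which links TLR4 to TRIF, fell by 0.59 on the log2 scale (edgeR adjusted p = 0.00309) and 4 did not pass, with a list median of 0.02. Of 15 kinases and ubiquitin ligases 1 was higher, 3 were lower and 11 did not pass, with a median of -0.0005. Irak1 rose by 0.31 (edgeR adjusted p = 0.0186), with log2 CPM ratios of 0.08 in Experiment 1 and 0.33 in Experiment 2. Irak4, its partner in the MYD88 complex, fell by 0.33 (edgeR adjusted p = 0.0110), with ratios of -0.45 and -0.43. Map3k8 fell by 0.31 (0.0182) and Ikbke by 0.72 (0.000845). On the scale of UMIs per cell, Ticam2, Irak4 and Map3k8 turned to 0.028, 0.29 and 0.31.

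The transcription factors had 6 of 9 genes lower and 3 that did not pass, with a median of -0.34. Relb went from 16.3 to 8.01 CPM and from 16.2 to 6.09, a log2 fold change of -1.11 ± 0.123 (edgeR adjusted p = 0.000503), and Nfkb2, which encodes its NF-κB partner, fell by 0.80 (0.000795). Rel fell by 0.56 (0.00122) and Irf8 by 0.50 (0.00634), both of which turned to positive values in UMIs per cell (0.063 and 0.12).

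Of 15 negative regulators 1 was higher, 6 were lower and 8 did not pass, with a median of -0.21. Tollip, which restrains IRAK1, rose by 0.60 on the log2 scale (edgeR adjusted p = 0.000916), Nfkbia, the NF-κB inhibitor, fell by 0.65 (0.000736) and Tnfaip8l2 by 0.62 (0.00511), although Tnfaip8l2 was at 0.0026 in UMIs per cell. Dusp1, a phosphatase induced by stress, was at 316 and 69.9 CPM in Experiment 1 but 30.6 and 22.4 in Experiment 2. Its log2 fold change of -1.22 (edgeR adjusted p = 0.0181) came with log2 CPM ratios of -2.18 and -0.45 within the experiments. With both the block and the non-efferocytic library of Experiment 1 left out it was 0.72 and did not pass (adjusted p = 0.566).

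Target cytokines and enzymes of the pathway had the lowest median, -1.17. Of 20 genes 14 were tested, 2 were higher, 9 lower and 3 did not pass. Cxcl10 was at 14.6 and 0.688 CPM in Experiment 1 and 11.5 and 1.37 in Experiment 2 (log2 fold change -3.56 ± 0.257, edgeR adjusted p = 9.52e-05). Cxcl2, a neutrophil attractant, fell by 2.40 (edgeR adjusted p = 0.00218) from levels that differed widely between the non-efferocytic libraries (87.2 and 8.38 CPM). The log2 fold change was -1.89 for Ccl5 (edgeR adjusted p = 0.000905) and -1.23 for the costimulatory gene Cd86 (0.000276). Ccl5 also differed between the non-efferocytic libraries, at 7.64 and 36.6 CPM, with log2 CPM ratios of -1.38 and -2.51 within the experiments. The genes that passed as higher were the chemokines Ccl2 (log2 fold change 0.75, edgeR adjusted p = 0.0124) and Ccl4 (0.68, 0.00837). Their log2 CPM ratios were smaller in Experiment 1 (0.15 and 0.20) than in Experiment 2 (1.12 and 0.96), a difference that was not tested. Tnf (-0.28) and Ccl3 (-0.19) did not pass. Ccl2, Ccl4, Ccl3, Tnf, Tlr3, Tlr5, Tlr6 and Rnaset2b were named after their values were seen. Il6, Il12a, Il12b, Il23a, Ifnb1 and Nos2 had at most 43 UMIs in a library and were not tested.

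**Figure D5:**
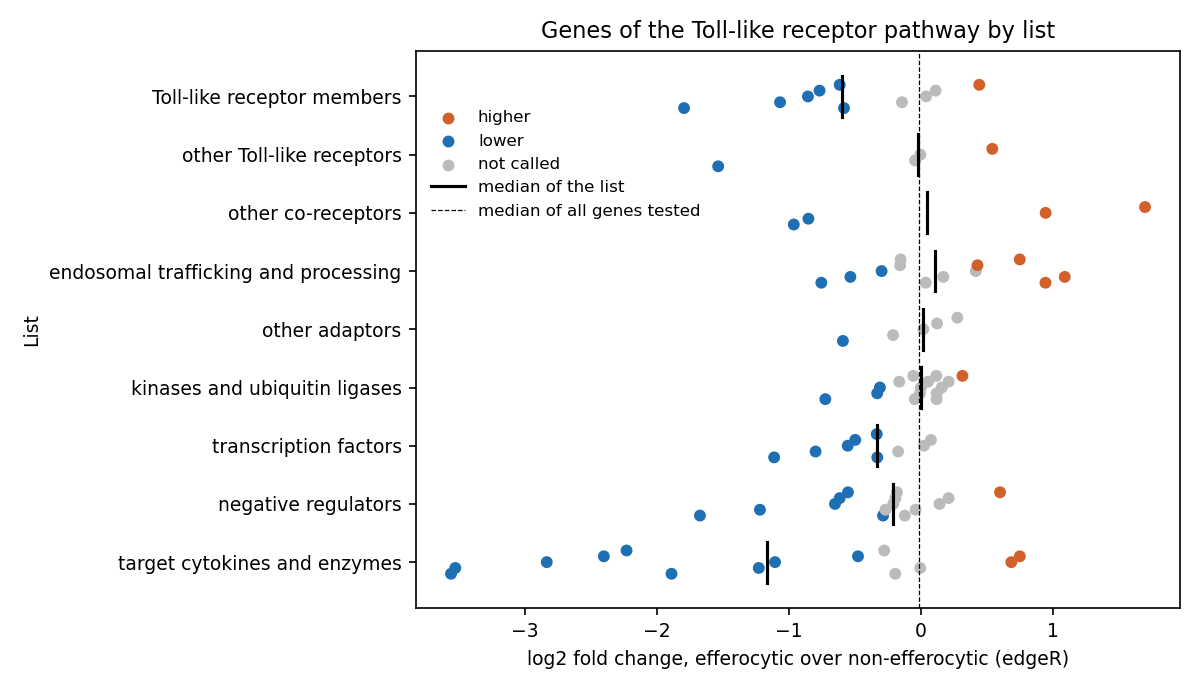
Log2 fold change by edgeR, efferocytic over non-efferocytic, of each tested gene of the 10 members and of 8 lists around them, colored by whether it passed as higher (orange), lower (blue) or did not pass (grey), with a black bar at each list's median and a dashed line at the median of all genes tested (-0.02). The members have 6 lower genes and 1 higher, and target cytokines and enzymes reach furthest to the left.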

How the data were processed

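Reads of the 4 libraries (10X Chromium 3′ v3.1) were mapped by the authors to mm10 with Cell Ranger (3.0.0 in the methods and the headers of Experiment 1, 3.1.0 in those of Experiment 2), and the deposited files hold raw UMI counts per gene and barcode. A barcode counted as a cell from 200 genes and 1000 UMIs upwards, unless over 10% of its UMIs were mitochondrial, thresholds taken from the study's methods. Applied to the deposited barcodes they kept more cells in each library than the study lists, so the cell set is not the study's own. Cell Ranger's calling rule, an alternative, kept 7549, 6158, 10615 and 7921 cells. Doublets were kept. UMI counts were summed per library, since cells are not replicates, and tested with edgeR 4.0.16 (R 4.3.3; quasi-likelihood, TMM, filterByExpr) with experiment as a block, Benjamini-Hochberg adjustment over 13869 genes and a threshold of 0.05. Libraries of an experiment, paired by the labels, deviated together from their group means (r = 0.787 across 7097 genes, which are not replicates). The standard error is the size of the log2 fold change over the square root of F. The test was checked on counts with known changes. Alternatives included DESeq2 1.42.0. The study's own test on cells was not repeated.

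The members and lists were chosen with earlier results of these data known. Named were all members and, per list, up to 4 called genes of at least 5 CPM with the largest changes, in the same direction in both experiments; others are stated. Gates used 3 of 6 macrophage markers and under 1% of UMIs from neutrophil or fibroblast markers. Depth limits counting: 3 UMIs, the limit a count of 0 allows, are 0.0193 to 0.0296 CPM. Intervals cover counting error only.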

Additional observations from a re-analysis of the deposited data

Results flagged for a closer look

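Ly96 and Tlr7 were the members whose CPM ratio, efferocytic over non-efferocytic, had opposite signs in the 2 experiments. For Ly96 the log2 CPM ratio was 0.10 in Experiment 1 and -0.24 in Experiment 2, and neither counting interval held 0. For Tlr7 it was -0.011 and 0.019, and both counting intervals held 0 (-0.05 to 0.03 and -0.02 to 0.06). The difference between the experiments was not tested, as each had 1 library per group.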

How the results depend on the processing

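Without the replicate block 4 members were lower (main, 6), and 7 pathway genes were higher and 14 lower (main, 11 and 31). In UMIs per cell 3 members were higher (main, 1) and 1 lower, and 31 pathway genes were higher and 8 lower. On that scale Tlr1 (0.0033), Tlr8 (0.036), Ticam2 (0.028), Map3k8 (0.31) and Irak4 (0.29) turned to positive log2 fold changes. So did Rel (0.063), Irf8 (0.12), Tnfaip8l2 (0.0026) and Myd88 (0.47). The median over all genes was 0.60 there, and why efferocytic cells held more UMIs each was not tested. With 10% of UMIs removed as free RNA 7 pathway genes were higher and 19 lower; the cause was not tested. With 1 library left out, without the block, 0 to 1 member was higher and 0 to 6 lower, and 0 to 9 pathway genes were higher and 0 to 15 lower, with fewer samples; the lone library was assumed to vary like the other group. Dusp1 then ranged from -2.88 to 0.72, Cd14 from -1.19 to -0.55, Tlr8 from -0.80 to -0.36, Tlr7 from -0.042 to 0.26 and Ly96 from -0.065 to 0.16. At 5000 UMIs per cell 1 member was found in more efferocytic cells in both experiments (4 as counted) and 8 in fewer (2 as counted), Tlr7 by under 1 percentage point; no share over all genes was computed. DESeq2, library totals, no gene filter, 10 CPM, 5% mitochondrial UMIs, 5000 UMIs, the Cell Ranger rule, macrophage-marker cells and, chosen after seeing the data, barcodes in 1 library only left each of these counts within 1.5 times the main one. Over all these settings, 120 log2 fold changes of single members kept their direction and side of the threshold, 27 lost their call, 3 gained one (Tlr7 and Ly96 in UMIs per cell, Myd88 at 10 CPM) and 9 turned in sign: Tlr1, Tlr8 and Myd88 in UMIs per cell, Tlr7 with 2 libraries left out in turn, and Ly96 with 2, with library totals (-0.069) and at 10 CPM (-0.057). Of all genes, 1073 were lower and 1285 higher without the block, 1082 and 1391 with free RNA removed, 1417 and 1987 with DESeq2, and 1553 and 1473 at 10 CPM, where fewer were tested. Tlr9, at 17 to 79 UMIs, is limited by depth.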
